A study of Mus musculus with 8 samples.

Results

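RNA levels were followed for 7 genes of vitamin C (ascorbate) transport, recycling and synthesis: the transporter family genes Slc23a1, Slc23a2 and Slc23a3, the synthesis genes Gulo and Rgn, and the recycling genes Gsto1 and Gsto2. They were 7 of 19938 genes with 1 probe set each, taken by their symbols, and each of the 7 had a single probe set. Slc23a1 was selected on these same array values, for its late climb in cells given vitamin C, so its values are described without a test, while the other 6 genes were tested. The values came from 8 Affymetrix whole-transcript arrays of 1 mouse clone, MaF pre-iPSC9P2, whose cells had begun reprogramming towards induced pluripotency without finishing it. The cells grew on feeder cells in mESC medium, the medium of mouse embryonic stem cells. In the vitamin C group 50 µg/ml of vitamin C was present from day 2, and in the untreated group the same medium held none added. Each group had 1 array on each of days 3, 4, 5 and 6, so 4 arrays per group, and the labels do not say whether the arrays of different days came from separate cultures. The p-values thus describe the spread among these arrays, part of which may be technical, and precision is limited by having 8 arrays. The sources used here do not give the reprogramming method or the ascorbate already in the medium.

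Ascorbate enters cells in its reduced form through sodium-driven carriers of the Slc23 family, and in its oxidised form, dehydroascorbate, through glucose transporters. Slc23a1 encodes the carrier of absorbing epithelia such as gut, kidney and liver, and Slc23a2 encodes the carrier found in most other tissues. Slc23a3 encodes a family member that is not known to carry ascorbate. Inside the cell dehydroascorbate is reduced again by glutathione-dependent enzymes, among them the omega-class glutathione transferases of Gsto1 and Gsto2. Mice, unlike humans, make ascorbate in the liver, where Rgn encodes the lactonase that forms gulonolactone and Gulo encodes the oxidase of the last step.

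The arrays resembled each other closely, with correlations between 0.977 and 0.994 and medians between 4.33 and 4.40 on the log2 scale. The pluripotency gene Pou5f1 was read at 11.93 to 12.10 with vitamin C and at 12.09 to 12.11 in untreated cells. Whether the probes of Pou5f1 also read an introduced copy is not said by the sources used here. Of 10 pluripotency markers, 4 passed the limma test over days as higher with vitamin C (Dppa5a, Dppa2, Nanog and Utf1), beside 0.537% of all genes, and 6 did not pass. The feeder or fibroblast marker Col1a1 was read at 8.47 to 9.38 with vitamin C and at 8.71 to 10.22 in untreated cells, in extracts from which feeder cells had been eliminated. In these bulk extracts, fewer cells of a type and less RNA per cell cannot be told apart.

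Promoters are shown for 3 of the tested genes: for Gsto1 and Gsto2, neighbours on chromosome 19 whose vitamin C effects, averaged over days, had opposite signs without passing the test, and for Slc23a2, whose vitamin C effect was the nearest to 0 of the 6. Each is RefSeq sequence of assembly GRCm38.p6, written 5′ to 3′ in the direction of the gene, from 250 bases before the start of transcription to 50 bases from it. Capitals mark matches on either strand to the GC box GGGCGG (35.7% of 32851 promoters of this length hold 1 or more) or the CCAAT box CCAAT (37.4%). Of the 7 genes, 4 had a promoter that was matched and looked at here. Gsto1 (chr19:47854723-47855022, + strand), Gsto2 (its first listed start of 2, chr19:47865295-47865594, + strand) and Slc23a2 (1 of 2 listed starts, chr2:132145059-132145358, - strand) read as follows.
Gsto1: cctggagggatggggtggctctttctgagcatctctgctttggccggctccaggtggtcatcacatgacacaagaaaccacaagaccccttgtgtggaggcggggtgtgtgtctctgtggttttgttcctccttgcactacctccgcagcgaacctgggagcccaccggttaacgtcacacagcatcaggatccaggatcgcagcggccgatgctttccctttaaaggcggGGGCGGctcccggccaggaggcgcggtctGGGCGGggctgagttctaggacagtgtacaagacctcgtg
Gsto2: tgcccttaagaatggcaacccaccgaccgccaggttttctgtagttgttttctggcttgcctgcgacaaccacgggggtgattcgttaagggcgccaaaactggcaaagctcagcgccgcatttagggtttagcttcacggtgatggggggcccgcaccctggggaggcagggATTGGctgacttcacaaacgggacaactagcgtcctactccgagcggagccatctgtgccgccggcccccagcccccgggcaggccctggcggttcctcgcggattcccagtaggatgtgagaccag
Slc23a2: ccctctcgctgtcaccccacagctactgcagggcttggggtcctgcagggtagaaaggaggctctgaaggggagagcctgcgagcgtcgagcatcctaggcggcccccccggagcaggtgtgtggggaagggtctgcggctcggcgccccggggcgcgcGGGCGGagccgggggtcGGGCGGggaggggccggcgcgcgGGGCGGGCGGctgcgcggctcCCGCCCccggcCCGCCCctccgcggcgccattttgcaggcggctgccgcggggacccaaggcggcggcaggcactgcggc

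The Gsto1 promoter held 2 GC boxes and no CCAAT box, and the Gsto2 window shown held 1 CCAAT box, on the opposite strand, and no GC box. The window of the other listed Gsto2 start, not shown, held 2 GC boxes and 3 CCAAT boxes. The Slc23a2 window shown held 6 GC boxes, of which a pair overlap, and was 78.3% G and C, against a median of 52.7% over all promoters. That of its other listed start held 0 GC boxes and 2 CCAAT boxes and was 57.3% G and C. The Gsto1 and Gsto2 windows shown had 60.7% and 61.7%. None of these windows, shown or not, held the TATA box TATAAA, which 13.6% of promoters hold, or the antioxidant response element core TGACNNNGC, which 12.4% hold. These letters are a description of the windows and were not set against the array values.

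Slc23a1, the epithelial ascorbate carrier, was slightly lower with vitamin C on day 3 and several-fold higher by days 5 and 6, while its level in untreated cells stayed within a narrow band. Its log2 values on days 3, 4, 5 and 6 were 3.66, 4.87, 6.09 and 6.80 with vitamin C, against 4.04, 3.70, 3.82 and 3.84 in untreated cells. The 3 vitamin C arrays of days 4 to 6 lay above all untreated arrays, and the vitamin C array of day 3 lay below all of them. As the gene was chosen for this course, the values stand as a description.

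In order of level, the vitamin C array of day 6 came first, 0.72 above that of day 5, which lay 1.22 above that of day 4. The array of day 4 lay 0.83 above the highest of the remaining 5 arrays. Those 5, which were the 4 untreated arrays and the vitamin C array of day 3, lay between 3.66 and 4.04, with gaps of 0.02 to 0.20 between neighbours. The untreated arrays had an SD of 0.14 (n = 4), so the neighbours in this low set did not differ beyond that spread, apart from the untreated array of day 3, whose gap of 0.20 exceeded it.

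With vitamin C the steps between days were 1.22, 1.22 and 0.72 on the log2 scale, and in untreated cells they were -0.34, 0.12 and 0.02. The last step with vitamin C was thus the smallest of its 3, at 1 array a day. Between day 3 and day 6 the level changed 8.86-fold with vitamin C, which ranked 13 among 19938 genes, and 0.873-fold in untreated cells. The mean over days was 5.35 ± 1.38 with vitamin C and 3.85 ± 0.14 in untreated cells (SD, n = 4 each).

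**Figure D1:**
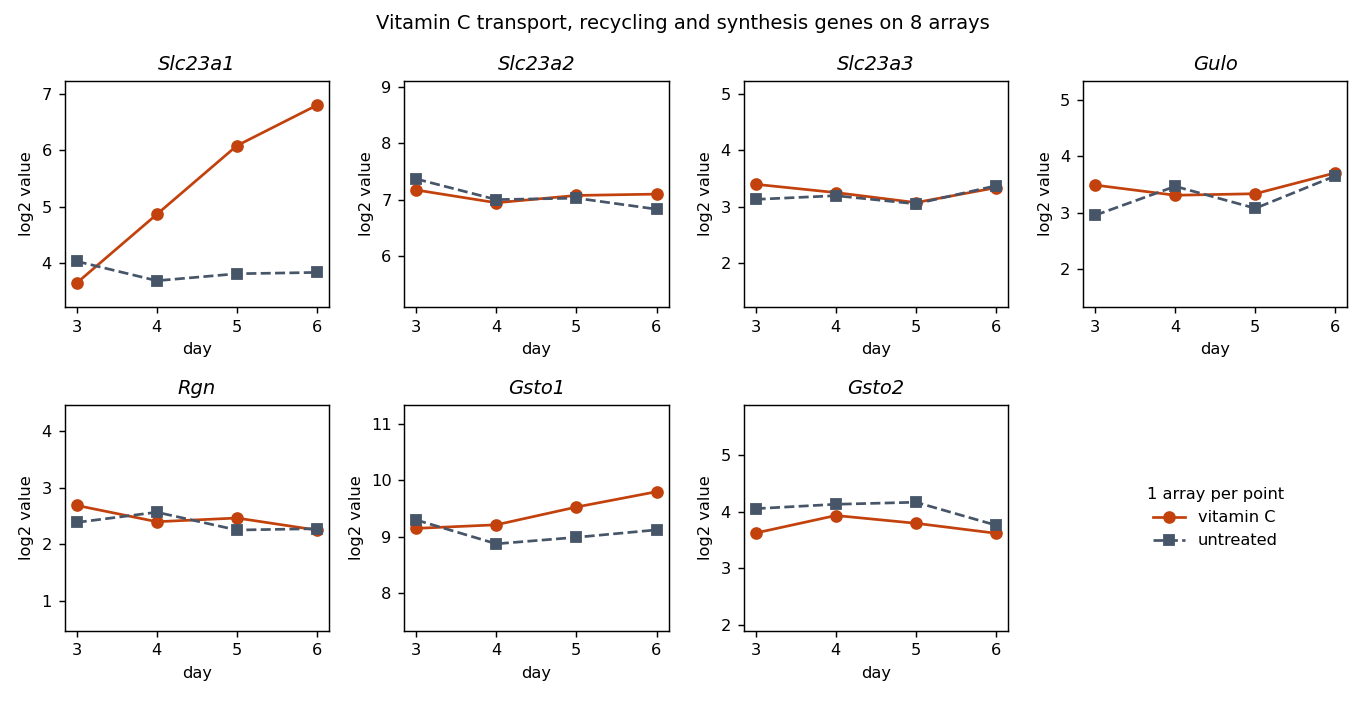
Log2 array values (y axis) of the 7 genes by day (x axis), with orange circles for vitamin C and grey squares for untreated cells, 1 array per point. All panels span the same height in log2 units, and Slc23a1 with vitamin C runs between 3.66 and 6.80 while the other lines stay within 0.92 for each gene.

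The difference of Slc23a1, vitamin C minus untreated, was -0.38, 1.17, 2.27 and 2.96 on days 3 to 6. In linear terms the vitamin C level was 0.767-fold, 2.26-fold, 4.81-fold and 7.78-fold the untreated level. The untreated values, 3.70 to 4.04, lay not far above 3.30, the mark for dim probe sets used below, so these ratios rest on low untreated readings. Counted from the top of all genes, the rank of Slc23a1 was 18301 on day 3, then 70, 12 and 6. It was therefore among the lower genes on the first day and near the top on the last.

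The difference of Slc23a1 grew by 1.11 ± 0.10 per day (log2, SE), which was the steepest growth among 19938 genes. Its slope on day was 1.07 ± 0.07 per day with vitamin C and -0.05 ± 0.07 per day in untreated cells. Its range over the 8 arrays was 3.15, larger than that of 99.9% of genes. The growth was 0.99 to 1.26 per day when single arrays were left out, with the highest value without the vitamin C array of day 6.

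Of the 7 genes, 1 (Slc23a1) was at least 2-fold higher with vitamin C on days 4, 5 and 6, and 0 were on day 3. The share of all genes at least 2-fold higher was 0.642% on day 4, 0.963% the next day and 1.51% on day 6, and since Slc23a1 was chosen for this course nothing is read from its count. No member was 2-fold lower on any day. The 1st percentile of all genes lay between -0.84 and -0.74 on the 4 days, and the 99th percentile on day 3 was 0.80. Changes of 2-fold were thus rare among all genes there too, and nothing is read from these counts of 0. The largest absolute daily difference of the other 6 was 0.68, for Gsto1 on day 6, and on each day all 6 lay within the 1st to 99th percentile of all genes, which was -0.78 to 1.19 on day 6.

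**Figure D2:**
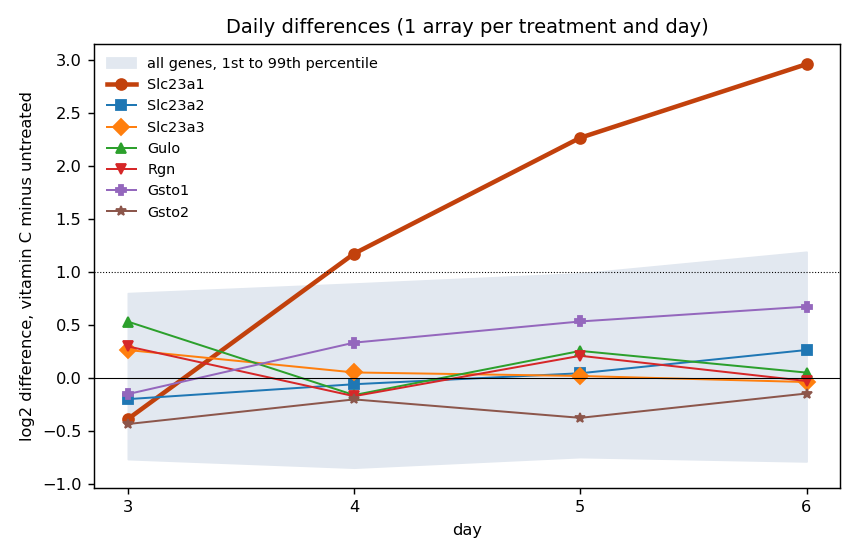
Log2 difference, vitamin C minus untreated (y axis), of each of the 7 genes on days 3 to 6 (x axis), from 1 array per treatment and day, with the band between the 1st and 99th percentile of all 19938 genes in grey and a dotted line at 2-fold. Slc23a1 leaves the band upwards on day 4 and reaches 2.96 on day 6, while the other 6 genes stay inside it.

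The other 6 genes were tested with limma on all 8 arrays, with p-values adjusted by Benjamini-Hochberg across 19938 genes and called under 0.05. For the difference between treatments averaged over days, named the vitamin C effect here, 0 of 6 passed, where 0.537% of all genes passed as higher and 0.216% as lower. None passed for the growth of the difference with day, where 0.0652% passed as growing upwards and 0% downwards. For the slope on day with vitamin C, where 5.25% of all genes passed upwards and 3.39% downwards, 0 of 6 passed, and in untreated cells, where 0.782% and 0.968% passed, likewise 0 of 6. With shares this small a count of 0 among 6 genes lies near the background.

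At an unadjusted limma p under 0.05 stood 2 of 6 genes for the vitamin C effect (12.7% of all genes), Gsto1 and Gsto2. It was 1 of 6 for the growth (11.3%) and for the slope with vitamin C (24.9%), Gsto1 both times, and 1 of 6 for the untreated slope (17.0%), Slc23a2. The median vitamin C effect of the 6 was 0.08 and that of all genes -0.01. The ranges of the 6 genes over the 8 arrays ran from 0.35 to 0.92, and the median range of all genes was 0.58.

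Slc23a2, the widespread carrier, did not pass any of the tests. On days 3 to 6 its log2 values were 7.18, 6.95, 7.08 and 7.10 with vitamin C, against 7.37, 7.01, 7.03 and 6.84 in untreated cells. The groups overlapped, and the difference was negative on days 3 and 4 and positive on days 5 and 6. The means were 7.08 ± 0.09 with vitamin C and 7.06 ± 0.22 in untreated cells (SD, n = 4 each).

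Slc23a2 had a vitamin C effect of 0.02 ± 0.11 (log2, moderated SE, limma adjusted p = 0.977), with a 95% interval of -0.24 to 0.27. Its difference moved by 0.15 ± 0.09 per day (adjusted p = 0.574). The slope on day was -0.01 with vitamin C (adjusted p = 0.952) and -0.16 in untreated cells (adjusted p = 0.246). Over the 8 arrays its values correlated with those of Slc23a1 with r = 0.04, a description over arrays that share the clone and the course in time.

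Slc23a3 was dim. Log2 values on days 3 to 6 were 3.40, 3.25, 3.07 and 3.34 with vitamin C, against 3.13, 3.20, 3.05 and 3.37 in untreated cells. The groups overlapped on nearly their whole range, and the mean over the 8 arrays lay under 3.30, the 95th percentile of 1027 olfactory receptor genes, which served as a mark for dim probe sets. The vitamin C effect was 0.08 ± 0.11 (limma adjusted p = 0.839), with an interval of -0.16 to 0.32. Slc23a4, the other family gene, known in rat as a nucleobase carrier, had an effect of 0.10 (adjusted p = 0.856) and a growth of -0.17 per day (adjusted p = 0.601).

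Gulo, which encodes the last enzyme of ascorbate synthesis, did not pass any of the tests. Its mean over the 8 arrays, 3.38, lay just above the mark of 3.30, and its untreated mean, 3.29, just under it. Its log2 values on days 3 to 6 were 3.49, 3.31, 3.34 and 3.71 with vitamin C, against 2.96, 3.47, 3.08 and 3.65 in untreated cells. The groups overlapped, and the largest daily difference, 0.53 on day 3, was followed by -0.16, 0.26 and 0.05. The vitamin C effect was 0.17 ± 0.13 (limma adjusted p = 0.663), with an interval of -0.12 to 0.47, and the growth was -0.10 ± 0.13 per day (adjusted p = 0.805).

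Rgn, which encodes the lactonase of the step before, was dim. Log2 values on days 3 to 6 were 2.69, 2.40, 2.46 and 2.25 with vitamin C, against 2.39, 2.57, 2.25 and 2.28 in untreated cells. The groups overlapped, and all 8 values lay under the dim mark. The vitamin C effect was 0.08 ± 0.12 (limma adjusted p = 0.853), with an interval of -0.18 to 0.34. In all, 2 of the 7 genes had means over the 8 arrays under the mark, Slc23a3 and Rgn, as had 5390 of all genes.

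Gsto1, a dehydroascorbate reductase, did not pass any of the tests, and its daily difference was negative on day 3 and higher on each later day. On days 3 to 6 its log2 values were 9.15, 9.21, 9.52 and 9.79 with vitamin C, against 9.29, 8.87, 8.99 and 9.12 in untreated cells. The vitamin C arrays of days 5 and 6 lay above all untreated arrays, and those of days 3 and 4 did not. The daily differences were -0.15, 0.34, 0.54 and 0.68, or 0.902-fold, 1.26-fold, 1.45-fold and 1.60-fold the untreated level.

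Means of Gsto1 were 9.42 ± 0.30 with vitamin C and 9.07 ± 0.18 in untreated cells (SD, n = 4 each). Its vitamin C effect was 0.35 ± 0.14 (moderated SE, limma adjusted p = 0.35), with an interval of 0.03 to 0.67. The growth of 0.27 ± 0.10 per day did not pass either (limma adjusted p = 0.36), and it was 0.10 without the untreated array of day 3. The slope with vitamin C was 0.23 ± 0.07 per day (adjusted p = 0.0786) and that in untreated cells -0.04 (adjusted p = 0.826).

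With the trend and robust options of eBayes the slope of Gsto1 with vitamin C passed (limma adjusted p = 0.0141). Over the 8 arrays the values of Gsto1 correlated with those of Slc23a1 with r = 0.92, again a description. For the remaining members r was -0.03 for Slc23a3, 0.32 for Gulo, -0.33 for Rgn and -0.49 for Gsto2. Gsto1 was therefore the member with the course most like Slc23a1 by this measure.

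Gsto2, the neighbouring gene of the same enzyme class, was lower with vitamin C on each of the 4 days without passing the test. Its log2 values on days 3 to 6 were 3.63, 3.94, 3.80 and 3.62 with vitamin C, against 4.06, 4.13, 4.17 and 3.76 in untreated cells. The groups overlapped, because the untreated array of day 6 lay under the vitamin C arrays of days 4 and 5. The means were 3.74 ± 0.15 with vitamin C and 4.03 ± 0.18 in untreated cells (SD, n = 4 each).

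The daily differences of Gsto2 were -0.43, -0.20, -0.37 and -0.14. Their average, the vitamin C effect, was -0.29 ± 0.11 (limma adjusted p = 0.294), with an interval of -0.53 to -0.05, and the growth was 0.07 ± 0.11 per day (adjusted p = 0.85). The averages over days of Gsto1 and Gsto2 had opposite signs, but neither passed, both genes were lower with vitamin C on day 3, and the difference between the 2 genes was not tested.

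The genes around these 7 were described by counts in 6 lists: carriers of dehydroascorbate, enzymes that reduce dehydroascorbate or the ascorbate radical, the cytochrome b561 family, the formation and further use of gulonate, partners and regulators of the Slc23 carriers, and the sodium pump. These lists held 40 measured genes. They were chosen with earlier results of these data known and no set test was run, so their shares below are a description only. For the vitamin C effect 0 of 40 passed in limma (0.537% of all genes higher, 0.216% lower), with a median of 0.01 beside -0.01 for all genes. At an unadjusted p under 0.05 stood 6 of 40, beside 12.7% of all genes. For the growth 1 of 40 passed upwards (2.5%, beside 0.0652% of all genes). For the slope with vitamin C 8 of 40 passed upwards (20%, beside 5.25% of all genes) and 0 downwards, and in untreated cells 3 of 40 passed upwards (7.5%, beside 0.782%) and 0 downwards.

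Of the 3 measured sodium pump genes, whose product keeps up the gradient that drives the Slc23 carriers, Atp1b1 was the gene whose difference grew. Atp1b1, a beta subunit, had log2 values of 5.00, 5.81, 6.84 and 7.55 on days 3 to 6 with vitamin C, against 5.21, 5.20, 5.49 and 5.52 in untreated cells. The vitamin C arrays of days 4 to 6 lay above all untreated arrays, and that of day 3 below all of them, as for Slc23a1. Its difference grew by 0.74 ± 0.09 per day (limma adjusted p = 0.0182).

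The growth of Atp1b1 was 0.71 to 0.80 per day without single arrays, and it lost the call when any 1 of 6 arrays was left out (limma adjusted p = 0.0527 to 0.3), that is, any but the vitamin C array of day 4 or the untreated array of day 5. Its slope with vitamin C, 0.87 ± 0.06 per day (adjusted p = 0.000105), passed whichever single array was left out. Atp1b2, another beta subunit, rose with day in both groups, by 0.27 per day with vitamin C (adjusted p = 0.0266) and by 0.32 in untreated cells (adjusted p = 0.036). Its calls were lost without the vitamin C array of day 3 or 6 (adjusted p = 0.223 to 0.349), and without each untreated array for the untreated slope (0.0796 to 0.603).

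Among the 5 dehydroascorbate carriers the glucose transporters Slc2a1 and Slc2a3 passed for the slope with vitamin C (5.25% of all genes upwards). Slc2a4 passed for the untreated slope (0.782%), while 0 of 5 carriers passed for the difference of slopes (0.0652%). Slc2a1, the most widespread of them, had log2 values of 10.56, 10.46, 11.73 and 12.10 on days 3 to 6 with vitamin C, against 10.84, 10.85, 11.48 and 12.01 in untreated cells. The groups overlapped, with a vitamin C effect of -0.08 (limma adjusted p = 0.872). The slope was 0.59 ± 0.10 per day with vitamin C (adjusted p = 0.00803) and 0.41 in untreated cells (adjusted p = 0.082).

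Slc2a3 had slopes of 0.63 ± 0.08 per day with vitamin C (limma adjusted p = 0.00224) and 0.35 in untreated cells (adjusted p = 0.0681), and the difference of slopes, 0.27 per day, did not pass (adjusted p = 0.429). Without the vitamin C array of day 6 the slope of Slc2a3 had an adjusted p of 0.0564 and that of Slc2a1 one of 0.134. Slc2a4, the insulin-regulated transporter, rose by 0.33 ± 0.07 per day in untreated cells (adjusted p = 0.0474), a call lost without 6 of the 8 arrays (all untreated arrays and the vitamin C arrays of days 5 and 6, adjusted p = 0.0504 to 0.69). It was also lost when the arrays were centred (0.0548) or normalized again (0.0581). With vitamin C the slope of Slc2a4 was 0.22 (adjusted p = 0.0807), and the difference of slopes was -0.11 (adjusted p = 0.733).

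Of 13 genes that reduce dehydroascorbate or the ascorbate radical, Glrx and Cyb5r3 rose with day in vitamin C cells (5.25% of all genes upwards). In the other tests 0 of 13 passed, where at most 0.968% of all genes passed in either direction. Glrx, which encodes glutaredoxin, had log2 values of 5.70, 5.45, 6.35 and 6.66 on days 3 to 6 with vitamin C, against 5.41, 5.58, 5.29 and 5.17 in untreated cells. The vitamin C arrays of days 3, 5 and 6 lay above all untreated arrays. The slope with vitamin C was 0.38 ± 0.09 per day (limma adjusted p = 0.029), against -0.10 in untreated cells, while the growth of 0.48 ± 0.13 per day did not pass (adjusted p = 0.21).

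The Glrx slope lost its call without the vitamin C array of day 5 (limma adjusted p = 0.0641) or of day 6 (0.315), and the slope was 0.60 without the vitamin C array of day 3. Cyb5r3, the reductase that hands electrons to cytochrome b5, rose by 0.25 ± 0.06 per day with vitamin C (adjusted p = 0.0319), a call lost without the untreated array of day 5 or 6 or the vitamin C array of day 3, 5 or 6 (0.0523 to 0.307). Txn1, which encodes thioredoxin, had a vitamin C effect of -0.45 (adjusted p = 0.32) and a growth of 0.37 per day (adjusted p = 0.247). Pdia3, a disulfide isomerase gene, had a growth of 0.24 per day (adjusted p = 0.377).

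Among genes that form or use gulonate Dcxr, a reductase of xylulose, rose with day in both groups. Its slope was 0.55 ± 0.08 per day with vitamin C (limma adjusted p = 0.0037, and 0.0509 without the vitamin C array of day 3) and 0.50 ± 0.08 in untreated cells (adjusted p = 0.0163, and 0.63 without the untreated array of day 6). Ugdh, which makes UDP-glucuronate, had a growth of 0.24 per day (adjusted p = 0.306), Ugp2 0.24 (0.48), Akr1a1 -0.12 (0.594) and Cryl1 -0.10 (0.743). None of the 7 measured genes of this list passed for the vitamin C effect (0.537% of all genes higher, 0.216% lower).

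Of 7 measured partners and regulators of the Slc23 carriers, 1 passed for the slope with vitamin C (5.25% of all genes upwards). Slc9a3r1, a scaffold protein gene, rose by 0.25 ± 0.07 per day with vitamin C (limma adjusted p = 0.046), beside 0.14 in untreated cells (adjusted p = 0.327). Without the vitamin C array of day 3 the slope was 0.15. The call was lost when any 1 of 7 arrays was left out, that is, any but the vitamin C array of day 4 (adjusted p = 0.0538 to 0.44), with centring (0.0565) and with normalization again (0.0592). Clstn3 had a vitamin C effect of 0.38 (adjusted p = 0.176), and Rab8a and Sp3 had growths of 0.13 per day each (adjusted p = 0.644 and 0.632). In the cytochrome b561 family 0 of 5 genes passed any test. The largest share of all genes in any test was 5.25%, so nothing is read from this count. Cybrd1, an iron and ascorbate-linked reductase gene, had a growth of -0.36 per day (adjusted p = 0.173). Cyb561a3, Cyb561d1 and Cyb561d2 had growths of 0.06, -0.13 and -0.14 per day (adjusted p = 0.6 to 0.863).

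**Figure D3:**
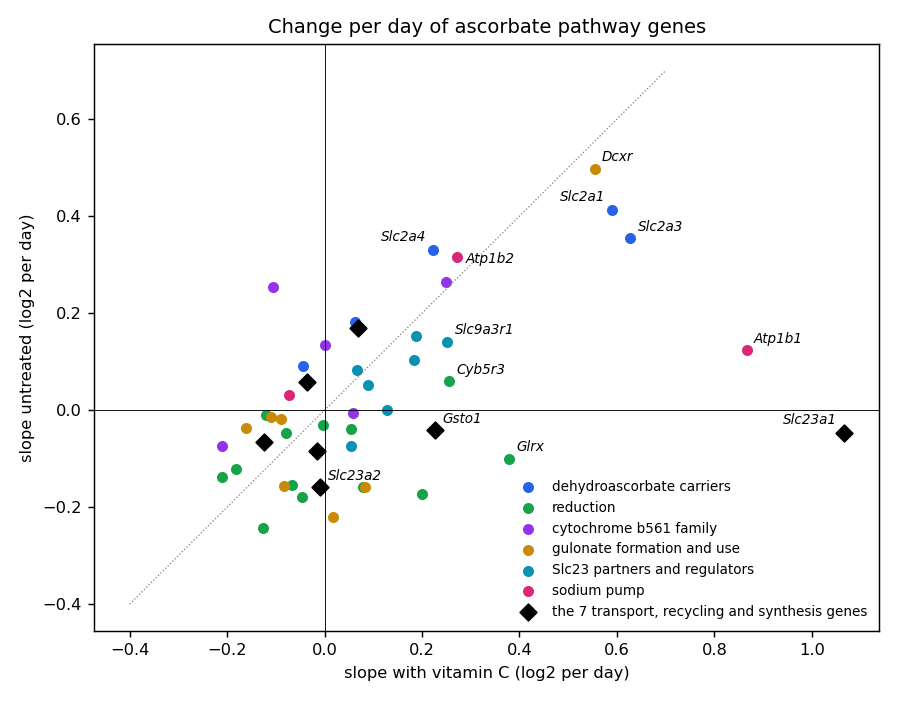
Slope on day with vitamin C (x axis, log2 per day) against slope on day in untreated cells (y axis, log2 per day) for the 7 genes (black diamonds) and 40 other ascorbate pathway genes (circles, coloured by list), with a dotted line of equal slopes. Slc23a1 lies farthest right, at 1.07 with vitamin C and -0.05 untreated, followed by Atp1b1 at 0.87 and 0.12, while Dcxr lies near the line.

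The genes with courses most like Slc23a1 were sought among 2184 genes with a range of at least 1 on the log2 scale, by Pearson r over the 8 arrays. The first 8 were Sox2 (r = 0.99), Cfap70 (0.98), Ccdc136 (0.98), Epb41l1 (0.98), Trap1a (0.98), Rab15 (0.98), Tmc3 (0.98) and Sync (0.98). These r values describe 8 arrays that share a clone and a course in time, and carry no p. In untreated cells the means of Cfap70 (2.92) and Trap1a (3.24) lay under the dim mark of 3.30. Sox2, a pluripotency factor gene, was 2.55 higher with vitamin C on day 6 and -0.09 on day 3.

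On day 6 the differences of the other 7 lay between 0.93 for Ccdc136 and 2.16 for Rab15, so that Slc23a1 had the largest of the set, at 2.96. On day 3 the 8 genes lay between -0.39 and 0.01. Sox2 is also on the list of pluripotency markers, and the sources used here do not say whether its probes also read an introduced copy.

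The differences of the mean levels of epithelial, pluripotency and trophoblast markers were also larger on later days than on day 3. Single markers mostly did not pass for the growth: 0 of 13 epithelial, 1 of 10 pluripotency and 1 of 8 trophoblast markers did. The share of all genes was 0.0652%. The growth was above 0 for 12, 8 and 7 of these markers in that order. The mean level of 13 epithelial markers, with 7 called higher in the vitamin C effect (0.537% of all genes), ran from 6.59 to 8.44 over the vitamin C arrays and from 6.14 to 7.06 over the untreated arrays. Its difference was 0.45, 0.90, 1.39 and 1.38 on days 3 to 6. Slc23a1 has a role in epithelia, and the part of these markers in its course was not tested.

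The mean of 10 pluripotency markers lay between 6.87 and 8.33 with vitamin C and between 6.04 and 6.59 in untreated cells, with differences of 0.83, 1.45, 1.53 and 1.73. That of 8 trophoblast markers lay between 4.60 and 5.89 with vitamin C and between 4.50 and 4.84 in untreated cells, with differences of 0.10, 0.64, 0.78 and 1.06. Of the 8 markers, 3 were called higher, Elf5, Rhox6 and Rhox9 (again 0.537% of all genes). Cdx2 and Eomes had vitamin C effects of -0.33 and -0.09 (limma adjusted p = 0.307 and 0.822). Plac1 lay under the dim mark. On day 3 the differences were thus 0.45 for the epithelial, 0.83 for the pluripotency and 0.10 for the trophoblast list, and -0.38 for Slc23a1. The trophoblast mean with vitamin C on that day, 4.60, lay within the untreated range. The part of these lists in the course of Slc23a1 was not tested.

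Markers of kidney, gut and liver epithelium, the tissues in which Slc23a1 is best known, showed little difference between the groups in their mean level. The mean of these 10 markers lay between 3.19 and 3.40 with vitamin C and between 3.22 and 3.41 in untreated cells. For the vitamin C effect 0 of 10 passed (0.537% of all genes higher, 0.216% lower). Of the 10 markers, 5 lay under the dim mark, namely Vil1, Fabp2, Alb, Afp and Ttr. Of the 10, 1 passed for the slope with vitamin C, beside 5.25% of all genes upwards. This was the apolipoprotein gene Apoa1, which rose by 0.31 per day (limma adjusted p = 0.021). Lrp2, an endocytic receptor gene, had slopes of 0.45 with vitamin C (adjusted p = 0.0646) and 0.31 in untreated cells (adjusted p = 0.262). Feeder or fibroblast markers, with 1 of 13 called lower (Col5a2, beside 0.216% of all genes), lay between 6.46 and 7.09 with vitamin C and between 6.49 and 7.70 in untreated cells, with differences of -0.61, -0.68, -0.38 and -0.03.

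The feeder difference was slightly wider on day 4 than on day 3 and narrower on days 5 and 6, and its part in the courses of Slc23a1, Gsto1, Glrx and Atp1b1 was not tested. With the mean of these markers in place of day in the model, 0 of the 6 tested genes passed for the vitamin C effect. With day in the model 0 of 6 had passed too, so this count could not show a call being lost. The effects were 0.26 for Gsto1, -0.19 for Gsto2, 0.02 for Gulo, 0.03 for Slc23a3, 0.19 for Rgn and 0.12 for Slc23a2. With day they were 0.35, -0.29, 0.17, 0.08, 0.08 and 0.02 in that order.

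**Figure D4:**
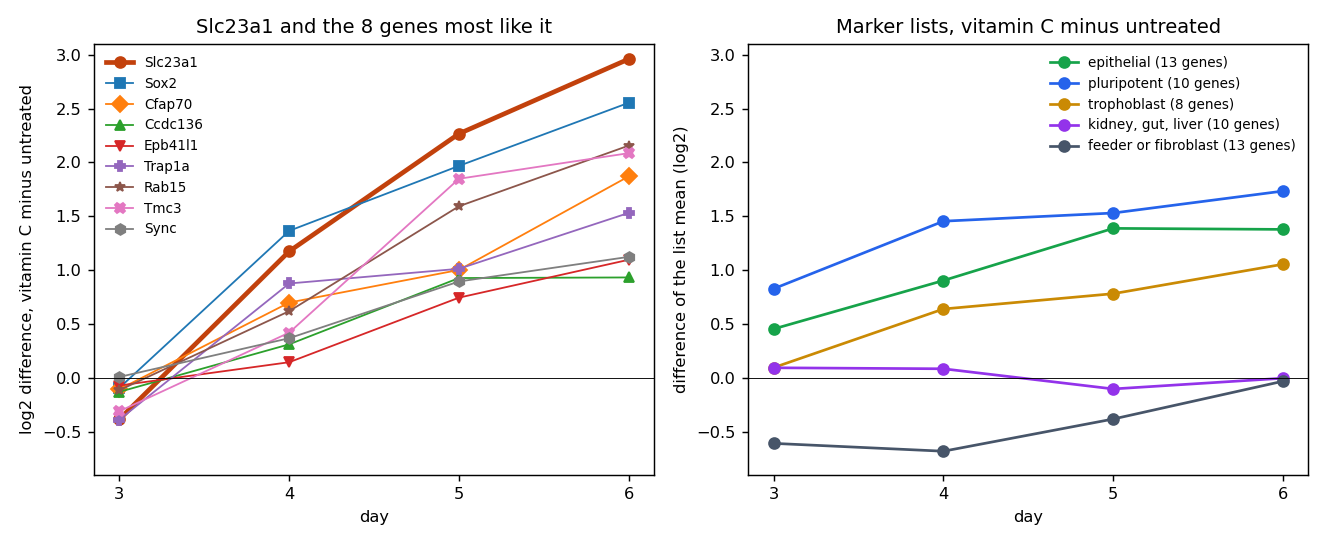
Left, log2 difference vitamin C minus untreated (y axis) on days 3 to 6 (x axis) for Slc23a1 and the 8 genes with the most similar values over the 8 arrays. Right, the same difference for the mean of each marker list, 1 array per treatment and day; the kidney, gut and liver list stays between -0.10 and 0.09 while Slc23a1 reaches 2.96.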

How the data were processed

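Gene expression was read in 8 arrays of 1 mouse pre-iPSC clone, 4 with vitamin C and 4 untreated, grouped by the treatment and day in the labels. Per the submitters' processing notes, the authors made the deposited log2 values of 28853 probe sets using Partek and RMA. The sources used here give neither versions nor the array's genome build, so positions are printed for RefSeq promoters only and none for probe sets. The log2 scale was inferred: the largest value, 13.8, exceeds the natural log of the largest 16-bit reading (11.1) and not its log2 (16.0). Feeder cells had been eliminated and Trizol-extracted RNA was labelled, per the labels' protocols.

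Probe sets were named from the platform annotation: 21789 had 1 symbol, 1621 several, and 5443 were not listed. The probe set with the highest mean per gene was kept, which left 19938 genes. RefSeq (GRCm38.p6) supplied names, chromosomes and promoters, with 21698 identifiers found in its table. That table lists Slc23a1 and Slc23a2 as synonyms of each other, and the probe sets were told apart by gene identifier and transcript.

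The members and lists were chosen with earlier results of these data known. Tests used limma 3.58.1 in R 4.3.3 (two-sided, lmFit and eBayes), adjusted by Benjamini-Hochberg across all genes: treatment with day as a factor (3 residual and 6.03 prior degrees of freedom), and slopes on day per treatment with their difference (4 and 6.43). The vitamin C effect and the growth were checked on simulated arrays, and the slopes within a treatment were not. The noise there was independent for each array, with no shared course in time and no shared deviation of same-day arrays. Day pairs the arrays in the labels, and same-day arrays deviated together from their group means, with correlations of 0.371, 0.18, 0.125 and 0.475 on days 3 to 6. The dim mark was the 95th percentile of the means of 1027 olfactory receptor genes. Named were the 7 members, Slc23a4, list genes past the threshold or among the 4 steepest interactions of a list, and the 8 genes that correlated best with Slc23a1 among those with a range of at least 1, leaving out predicted genes, clone names and olfactory receptors. Pou5f1, Col1a1 and other markers were named as checks after their values were seen. Tables and plots were made in Python 3.11.15 (pandas 2.3.3, matplotlib 3.10.9). Alternatives were centring, normalizing again, other probe set and eBayes choices, leaving out dim genes, other uses of day, and leaving out arrays or days.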

Additional observations from a re-analysis of the deposited data

Results flagged for a closer look

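Cryl1, which encodes a lambda-crystallin that acts as a gulonate dehydrogenase, had log2 values of 5.38, 5.01, 5.05 and 4.99 with vitamin C on days 3 to 6, against 5.02, 4.99, 5.16 and 4.92 in untreated cells. The vitamin C array of day 3 stood apart from the other 3 of its group, with a gap that was 0.848 of the range of that group. It was the 1 such group among 82 checked. Among replicates chance gives about 1 in 20 groups, so 1 of 82 is below that rate. The 4 arrays of a group come from different days and are not replicates.

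The slope on day of Atp1b1, a sodium pump subunit gene, was higher with vitamin C than in untreated cells by 0.7436 per day on the log2 scale (limma adjusted p = 0.0182). The adjusted p ran from 0.00259 to 0.3 over 14 alternatives, and the 6 of these that missed the threshold each left out 1 array.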

How the results depend on the processing

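The counts of the 6 tested genes stayed at 0 for the vitamin C effect, the growth and the untreated slope under every alternative run, and at 0 for the slope with vitamin C except that 1 gene, Gsto1, passed with the trend and robust options of eBayes. The cause was not tested. For Slc23a1 the growth per day was 0.992 to 1.26 without single arrays, 1.16 after normalizing again, and 1.11 when centred or with day as a replicate block. Its day 6 difference was 2.94 to 3.05. With no replicate block, that is, with day left out, 0 of the 6 genes passed for the vitamin C effect. With day as a replicate block 0 passed for the growth. In the main fits 0 of the 6 had passed too, so these counts could not show a call being lost. With day as a block the growth of Atp1b1 kept its call (adjusted p = 0.0329).

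Signs of uncalled values turned when single arrays were left out. The untreated slope ran from -0.153 to 0.123 for Gsto1, -0.185 to 0.0568 for Gsto2 and -0.0393 to 0.0883 for Slc23a3. The slope with vitamin C ran from -0.157 to 0.0860 for Gsto2, -0.0764 to 0.198 for Gulo, -0.0480 to 0.0765 for Slc23a2 and -0.162 to 0.0431 for Slc23a3. The growth ran from -0.0731 to 0.170 for Gsto2, -0.247 to 0.0281 for Gulo, -0.220 to 0.00360 for Slc23a3 and -0.0833 to 0.0210 for Rgn, which was 0.00756 after normalizing again. The vitamin C effect of Slc23a2 ran from -0.0680 to 0.0863 without single days. The cause was not tested. Probe sets under the dim mark limit what can be said of Slc23a3 and Rgn, which have no value with dim genes left out.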
